A study of Drosophila melanogaster with 24 samples.

Results

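Among the 22575 probes of a microarray of the fruit fly Drosophila melanogaster, 18 (0.0797%) were brighter both in embryos and in the heads of adult males than in every other group measured. They were chosen from the mean log2 signal of each of 6 groups. The lower mean of embryos and heads had to exceed the highest mean of male abdomens and the 3 groups of pupae by at least 0.5 log2 units, and embryos and heads had to lie less than 1 unit apart. The first difference is called the margin below. Since these means chose the probes, the margins and the distance between embryos and heads are given as descriptions, with no test.

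All flies were of the isogenic line WI89, in 4 samples per group, of which 2 carried the dye Cy3 and 2 carried Cy5. Embryos of both sexes and of mixed ages came from plates on which females had laid eggs for 24 h. Heads and abdomens were dissected from males 24 to 48 h old. Female and male pupae had been collected as white prepupae, 0 to 1 h after the pupal case formed, and kept at 25 °C for 12 h, and the mixed-sex pupal samples combined equal amounts of RNA from the 2 sexes. The labels do not say whether the samples of a group came from separate cultures, so the p-values reflect the spread of these samples alone, and that spread may be technical. The series title names sex-, stage- and tissue-dependent splicing as its subject. A probe on such an array can report a transcript's level or the inclusion of 1 of its parts, and the probes are tied to no gene or sequence in the tables used here. The labelled tissues could therefore not be checked against marker genes, and a gene may be counted more than once. Probes are named by their number in spot order.

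A fly head is rich in neurons, photoreceptors and glia, and also holds muscle and fat body. The late embryo contains a newly differentiated nervous system, while the early embryo carries RNA loaded by the mother. A pupa at the start of metamorphosis is dismantling larval tissues and building adult ones, and the male abdomen holds the reproductive tract, gut and fat body. In whole animals and whole body parts, fewer cells of a type and less RNA per cell cannot be told apart.

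Net signal is brightness over the local background, in scanner units. Its median per sample lay between 60.8 and 144 for the 12 Cy3 samples, against 5.19 to 61.7 for the 12 Cy5 samples. The lowest medians were those of the Cy5 samples head 3 (5.19), head 1 (6.26) and embryo 2 (6.77). In these, 80.1%, 74.0% and 86.3% of all probes were detected. The labels do not state which samples shared an array, so this was inferred from matching patterns of marked spots. Each array so inferred carried 1 Cy3 and 1 Cy5 sample, and 4 of the 12 arrays were brighter than the other 8. The bright arrays held 2 embryo samples, 1 of female, 3 of male and 2 of mixed-sex pupae, but no head or abdomen sample. Precision is limited by how few arrays there were. All 18 probes were detected in all 24 samples, and 17 had usable spots in all of them. Their net signal ran from 3.85 to 3499 units. Detection sets few probes apart, since 74.0% to 100% of all probes were detected per sample, with 100% in each Cy3 sample.

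The margins were modest, from 0.50 to 0.88 with a median of 0.61. The signal is on a log2 scale with an offset of 50 units, which understates the change of dim probes. Over all probes the median margin was -0.14, and the 99th percentile was 0.19. Heads had the higher mean for 11 of the 18 probes and embryos for 7, with a median difference of -0.28 (embryos minus heads) and a range from -0.99 to 0.48. The 18 probes spanned a wide range of brightness. Their group means ran from 6.96 to 10.42 in embryos (median 8.25), from 6.87 to 11.30 in heads (8.31), from 5.93 to 9.76 in abdomens (7.25), and from 6.12 to 9.55 over the 3 pupal groups. The median of all probes lay between 6.21 and 6.22 in every group. The highest of the other 4 groups was the abdomens for 10 probes, female pupae for 7 and male pupae for 1.

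For 11 of the 18 probes the lowest of the 8 embryo and head samples lay above the highest of the 16 others. Over all probes with complete values 0.141% had this order, a share that the choice of the 18 makes no result. Probes 5462, 22391, 15422, 10286, 9370, 12289, 17676, 1092, 8023, 13139 and 11006 had it. The other 7 overlapped in at least 1 sample.

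The 4 largest margins belonged to probes with a common pattern: probe 6883 (0.88), probe 5462 (0.85), probe 16294 (0.84) and probe 22391 (0.82). Probe 6883 had log2 signals of 8.38, 8.56, 7.27 and 7.49 in embryos and 9.07, 7.99, 8.33 and 7.69 in heads. Abdomens had 6.65, 7.13, 6.74 and 6.93, mixed-sex pupae 6.48, 6.79, 7.34 and 6.73, the 3 usable female pupal samples 6.96, 7.43 and 6.76, and the 3 usable male ones 6.73, 7.07 and 6.59. Embryos 3 and 4 were the dimmest of the 8 embryo and head samples, and embryo 3 lay below female pupae 2 and mixed-sex pupae 3. The spots left out carried a quality mark, on the array shared by female pupae 4 and male pupae 3.

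Probe 5462 had 8.25, 8.11, 7.49 and 7.66 in embryos and 8.69, 8.27, 8.35 and 7.60 in heads. The 16 other samples lay at or below 7.43, which was female pupae 2, so they did not overlap with embryos and heads. Probe 22391 had 8.16, 8.10, 7.33 and 7.50 in embryos and 8.87, 8.01, 8.44 and 7.63 in heads, against at most 7.25 in the others. Probe 16294 averaged 7.91 ± 0.58 in embryos, 8.56 ± 0.55 in heads, 6.95 ± 0.31 in abdomens, 7.07 ± 0.35 in female, 6.85 ± 0.21 in male and 7.01 ± 0.23 in mixed-sex pupae (SD, n = 4 each). In this probe embryo 4, at 7.35, lay under female pupae 2, at 7.57.

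The same samples were bright or dim for all 4 of these probes. Group means and a dye term shared by all groups were then removed. This leaves in any dye change that differed between groups. The deviations of the 4 probes correlated over the samples with r from 0.74 to 0.89 in the 6 pairs (24 samples, or 22 with probe 6883). The median over all 153 pairs of the 18 probes was 0.04 and the lowest was -0.68. The samples share arrays and normalization, so these r values are a description. The 4 spots lay apart on the array, at row 33 column 3, row 26 column 87, row 76 column 169 and row 105 column 31. Whether they carry the same or related sequences cannot be read from the tables used here.

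Dye moved with the level of these probes. Between the dyes, probe 16294 differed by -0.59 (Cy3 minus Cy5, SE 0.09, limma adjusted p = 0.00293) and probe 6883 by -0.60 (SE 0.12, limma adjusted p = 0.0106), whereas probe 5462 (-0.30, adjusted p = 0.0687) and probe 22391 (-0.31, adjusted p = 0.0765) did not pass. This fit took the 24 samples as independent, although each array held 1 sample of each dye. The consensus correlation within arrays was 0.49. With the array as a block 11 of the 18 probes passed, so how many passed depended on the model. With each sample scaled to its 75th percentile, the change was -0.22 for probe 16294 (limma adjusted p = 0.045). For probe 6883 it was -0.19 (limma adjusted p = 0.118), which then did not pass. Under that scaling the median dye change of all probes was -0.24, so neither change stood out from it. In each of the 4 probes both Cy5 samples lay above both Cy3 samples, in embryos and again in heads. The Cy5 channel was the dimmer one. In probe 6883, head 1 (Cy5) had a net signal of 100, below the 145 of abdomen 3 (Cy3) on its array. After normalization their log2 signals were 9.07 and 6.74. The part of the Cy5 channel and of normalization in these levels was not tested. The change with dye in embryos and heads minus that in the other groups was -0.61, -0.44, -0.49 and -0.69 for probes 6883, 5462, 16294 and 22391, with limma adjusted p of 0.319, 0.410, 0.271 and 0.149. The unadjusted limma p were 0.018, 0.048, 0.0097 and 0.0016 in the same order. By this test, added after the values were seen, none of the 18 probes passed, where 0.226% of all probes did (0.178% with a higher and 0.0488% with a lower difference). With so small a share, none of 18 says little about them. An unadjusted limma p under 0.05 was found for 6 of the 18. The share of all probes at that level was not taken, so no conclusion is drawn from this count. The margins of the 4 probes were 0.50 to 0.67 in the Cy3 samples alone, where probe 22391 fell just short of the limit (0.498), and 1.01 to 1.10 in the Cy5 samples alone. These are the values that chose the probes, and are given as a description.

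A further pair stayed low and level outside embryos and heads. Probe 15422 had 7.59, 7.34, 7.20 and 7.34 in embryos and 7.27, 7.26, 7.32 and 7.53 in heads, against 6.32 to 6.81 in the 16 other samples. Probe 9370 had 6.98, 6.93, 6.90 and 7.03 in embryos and 7.18, 7.27, 7.31 and 7.78 in heads, against at most 6.41 in the others. Neither pattern had an overlapping sample. Their spread was small, with an SD of 0.16 and 0.06 in embryos and 0.12 and 0.27 in heads (n = 4 each). Their deviations within groups also ran together (r = 0.85 over 24 samples), but not with those of the first 4 probes, where r lay between -0.43 and -0.04. Neither differed with dye past the threshold (adjusted p = 0.138 and 0.929).

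Male abdomens and male pupae were compared to see whether the groups outside embryos and heads were alike. The choice of probes capped both levels but did not use the direction between them. In male abdomens 6 of the 18 probes were higher and none was lower past the threshold, while 15.4% of all 22575 probes passed, 10.6% higher and 4.81% lower. Most of the 18 were brighter than the median probe in both groups, and the offset lessens the change of dim probes. The share over all probes, here and in the other tests, is therefore not a like background. The members' median change was 0.20, against -0.02 over all probes. The 6 were probes 11026, 10286, 8023, 12289, 11006 and 6231, with changes from 0.55 to 1.84. In these 6 of the 18 probes, and in no other member, the 4 abdomen samples lay above the 4 male pupal samples. Over all probes with complete values 11.9% had this order.

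Probe 11026 stood farthest from male pupae. Its log2 signals were 8.20, 8.70, 8.59 and 8.41 in abdomens, against 6.84, 6.67, 6.61 and 6.42 in male pupae, a change of 1.84 (SE 0.15, limma adjusted p = 8.1e-09). It had 8.66, 8.77, 9.31 and 9.36 in embryos and 9.30, 9.60, 9.26 and 9.53 in heads, and its female and mixed-sex pupal samples ranged from 6.37 to 7.01. Abdomens thus lay much nearer to embryos and heads than to any pupae, and abdomen 2, at 8.70, exceeded embryo 1. Over the Cy3 samples alone its margin was 0.94, against 0.16 over the Cy5 samples alone.

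Probe 10286, bright in every group, had 9.08, 9.59, 9.14 and 9.43 in abdomens, against 8.08, 8.82, 8.07 and 8.44 in male pupae (change 0.96, SE 0.21, limma adjusted p = 0.00243). Heads were highest, with 11.04, 10.57, 11.30 and 11.14, and embryos had 9.90, 10.43, 9.93 and 9.84. Its embryo mean lay 0.99 below its head mean, close to the limit of 1 for inclusion. Mixed-sex pupae 3, at 9.18, reached into the range of the abdomens.

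Probe 8023 had 7.47, 7.55, 7.39 and 7.48 in abdomens, against 6.84, 6.59, 6.69 and 6.48 in male pupae (change 0.82, SE 0.18, limma adjusted p = 0.00202). Its embryos had 8.43, 8.71, 8.04 and 8.07, and its heads 7.56, 8.16, 7.80 and 8.53. The dimmest head sample stood just above the brightest abdomen sample. Its margin was 0.62 over the Cy3 samples alone and 0.16 over the Cy5 samples alone.

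Probe 12289 averaged 8.33 ± 0.17 in abdomens, against 7.54 ± 0.17 in male pupae (SD over 4 samples, as for the next 2 probes). It changed by 0.79 (SE 0.16, limma adjusted p = 0.000768), with 8.96 ± 0.16 in embryos and 9.17 ± 0.15 in heads. Probe 11006 averaged 7.99 ± 0.23 in abdomens, against 7.32 ± 0.10 in male pupae. It changed by 0.67 (SE 0.12, limma adjusted p = 0.00021), with 8.71 ± 0.25 in embryos and 8.50 ± 0.09 in heads. Both formed a step from pupae through abdomens to embryos and heads. Probe 6231 averaged 7.72 ± 0.27 in abdomens, against 7.17 ± 0.12 in male pupae. It changed by 0.55 (SE 0.16, limma adjusted p = 0.0151). This last call was lost without abdomen replicate 4 (change 0.49, adjusted p = 0.0649) and without male pupae replicate 3 (0.50, 0.0618). It was also lost with the array as a fixed block (0.58, 0.0859) and without a dye term (0.55, 0.0758).

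Bright and dim arrays were unevenly spread over this comparison, since all 4 abdomen samples but only 1 male pupal sample lay on dim arrays. On dim arrays alone 1 of the 6 calls remained, that of probe 11026. There the changes of the other 5 were 0.62 to 1.05 in the same direction, and the single male pupal sample was taken to be as variable as the rest. With array brightness as a term the count was again 6, although probe 6231 then had an adjusted p of 0.0663. Scaling each sample to its 75th percentile ended the calls of probe 10286 (0.89, limma adjusted p = 0.0800) and probe 6231 (0.64, 0.141). It moved the median change of all probes to 0.11. Of the 18 probes 4 then passed, where 11.0% of all probes did.

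In the remaining 12 probes the abdomen did not differ from male pupae past the threshold. In 3 of them the lowest mean was that of abdomens. Probe 12314 had 7.07, 6.74, 6.81 and 6.80 in abdomens and 7.50, 7.11, 7.47 and 6.99 in male pupae (change -0.41, SE 0.15, limma adjusted p = 0.0734), while embryos had 8.48, 8.15, 8.09 and 8.37 and heads 7.51, 8.36, 7.74 and 8.25. Probe 17676 had a change of -0.30 (SE 0.13, adjusted p = 0.159) and probe 13139 one of -0.29 (SE 0.13, adjusted p = 0.169). None of these 3 passed, so they are not shown to be lower in abdomens.

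Probe 17676 was the member most tilted toward embryos, with 7.71, 7.58, 6.97 and 7.13 in embryos, 6.65, 6.87, 6.99 and 6.97 in heads, and 5.82 to 6.52 in the 16 others. Its head and abdomen means were the lowest of all 18. Probe 13139 averaged 7.70 ± 0.29 in embryos and 7.60 ± 0.12 in heads, against 6.80 ± 0.08 in abdomens and 6.99 ± 0.20, 7.09 ± 0.13 and 7.08 ± 0.19 in female, male and mixed-sex pupae (SD, n = 4 each). It was the only member whose highest other group was male pupae.

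Probe 12548 had the highest embryo and head means of all 18, and its head samples had an SD of 1.10. It had 10.38, 11.17, 10.38 and 9.75 in embryos and 12.29, 10.88, 12.10 and 9.94 in heads, while abdomens had 8.90, 10.96, 9.53 and 9.65. The pupal samples ran from 8.38 to 10.24. The groups overlapped broadly. It changed with dye by -1.14 (Cy3 minus Cy5, SE 0.18, limma adjusted p = 0.00453), but by -0.32 with scaling to the 75th percentile, where it did not pass (adjusted p = 0.0597). The median of all probes was then -0.24. Its abdomen to male pupae change was 0.32 (SE 0.32, adjusted p = 0.598).

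Probes 1092 and 7531 completed the list. Probe 1092 had 8.44, 8.21, 8.44 and 8.52 in embryos and 8.40, 8.56, 8.18 and 8.23 in heads, against 7.35 to 8.14 in the others. Probe 7531 averaged 8.85 ± 0.23 in embryos, 9.15 ± 0.43 in heads, 8.33 ± 0.40 in abdomens, 7.89 ± 0.31 in female, 7.92 ± 0.21 in male and 7.84 ± 0.18 in mixed-sex pupae (SD, n = 4 each). In both, abdomen 3 was the highest of the 16 samples outside embryos and heads, at 8.14 and 8.92. The second value exceeded 3 of the 8 embryo and head samples.

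The comparison of female with male pupae asked whether these probes differed with sex. None of the 18 passed the limma test, and none had an unadjusted p under 0.05, while 5.07% of all probes passed (0.656% higher and 4.42% lower in females). The changes ran from -0.10 to 0.45 (female minus male, median 0.16, against 0.02 over all probes), and the smallest adjusted p was 0.421. Female pupae had the higher value for 13 probes and male pupae for 5. The largest change, 0.45 (SE 0.23), was that of probe 6883, which had 3 usable samples in each sex. With standard errors of 0.10 to 0.32, differences of this size were not resolved.

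Between the dyes, 5 of the 18 probes passed the threshold, against 7.11% of all probes (3.57% higher and 3.54% lower in Cy3). This fit left out the pairing of dyes on arrays. With the array as a block 11 passed, and the share of all probes is not given there. Beside probes 16294, 6883 and 12548, which were brighter in Cy5, probe 6231 (0.36, SE 0.09, limma adjusted p = 0.0179) and probe 12314 (0.30, SE 0.09, limma adjusted p = 0.0441) were brighter in Cy3. The call of probe 12314 was lost on leaving out any one of 19 of the 24 samples. With scaling to the 75th percentile the changes of probes 6231 and 12314 were 0.82 and 0.66, against a median of -0.24 over all probes. Every group held both dyes equally, except at probe 6883, where the spots left out gave female pupae 2 Cy3 and 1 Cy5 samples and male pupae 1 Cy3 and 2 Cy5. Female pupae set the margin of that probe.

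Subsets of the samples that chose the probes are described next, with no support drawn from them. The margin was above 0 for all 18 probes in the Cy3 samples alone (0.40 to 0.94, median 0.60), in the Cy5 samples alone (0.16 to 1.10, median 0.56) and on dim arrays alone (0.24 to 1.33, median 0.57). It reached 0.5 for 12, 11 and 13 of them. On dim arrays the 5 margins above 1 were those of the first 4 probes and of probe 12548, from 1.00 to 1.33. Dye and group were mixed there, since both embryo samples on dim arrays were Cy5 and the 1 male pupal sample was Cy3, and these 5 probes had lower values in Cy3 (-0.30 to -1.14). Bright arrays held no head sample and gave no value.

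Choosing probes without 1 replicate number and reading them in that replicate gave smaller margins. Without replicate 1, 2, 3 and 4 the same rule took 19, 19, 24 and 20 probes, of which 13, 12, 17 and 10 were among the 18. In the replicate left out, their median margins were 0.15, 0.40, 0.27 and 0.33. The margin was above 0 for 13 of 19, 17 of 19, 19 of 22 and 14 of 18 probes with a value, and at least 0.5 for 8, 7, 5 and 7 of them. The share of all probes with such margins was not taken, so these counts are a description. All samples were normalized together, and most arrays held samples of different replicate numbers. The replicate left out was therefore not independent of the choice. Each replicate number held 1 sample per group, so dye was not balanced in these readings. In replicate 1 embryos and heads were Cy5 and the 4 other groups Cy3, and in replicate 4 embryos and heads were Cy3 and all others but mixed-sex pupae Cy5. Dye and group cannot be told apart in those 2 replicates.

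Differences between the 2 samples of an array use the same values that chose the probes, and are a description. On the 6 arrays that paired embryos or heads with another group, 17 or 18 of the 18 probes were brighter in the embryo or head sample. The median differences were 1.14, 0.79 and 0.87 for the arrays of embryos 1, 3 and 4, against female, mixed-sex and male pupae. They were 0.75, 0.94 and 0.95 for those of heads 1 and 2 against abdomens and of head 3 against female pupae. Between 1.22% and 3.75% of all spots reached the members' median difference on these arrays. On the array of embryo 2 and head 4, 8 of the 18 were brighter in the embryo sample, with a median difference of -0.06. On the 5 arrays that paired groups other than embryos and heads, the median differences lay between -0.02 and 0.35.

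The 18 spots were scattered over the 105 rows and 215 columns of the array, from row 6 to row 105 and from column 3 to column 211. No member touched another, and the nearest pair was 3 spots apart. The spots around each member, up to 8, showed no such pattern. Probe 22391 lay in the last row and had fewer of them. The median margin of the neighbours ranged from -0.50 to -0.03, with a median of -0.12 beside the -0.14 of all probes, and the highest margin of any single neighbour was 0.24.

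At the edge of the rule, the 4 members nearest inside were probes 11006 (margin 0.504), 13139 (0.508), 7531 (0.513) and 6231 (0.517). The 4 probes nearest outside were 9853 (0.499), 939 (0.495), 7103 (0.493) and 18142 (0.480). Probe 939 followed the pattern of the first 4 members, with r = 0.95 to their mean over the 24 samples. It averaged 7.91 in embryos, 8.18 in heads and 7.42 in abdomens. In all, 11 other probes reached r = 0.9 with that mean. The most similar was probe 17990 (r = 0.96, margin 0.43). These were looked up after the values were seen, and this r includes the group differences themselves.

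A further 2 probes met the margin but lay too far apart in embryos and heads. Probe 14587 averaged 7.57 in embryos and 9.96 in heads, against at most 6.99 in the other groups. Probe 9542 averaged 6.78 in embryos and 7.82 in heads, against at most 6.15 in the others. Both were higher in heads than in embryos. Applied to every other pair of groups, the same rule took 194 probes for heads with abdomens, 22 for embryos with abdomens, 17 for abdomens with male pupae, and between 0 and 9 for each of the 11 other pairs.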

How the data were processed

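The authors deposited 1 scanner table per sample with the mean signal intensity and the mean and median local background intensity of each spot and a quality mark, per the file headers. They carry no background correction or normalization. A second deposited table holds natural log values. It matched, within 1e-07, the logarithm of mean signal less mean background, and served only as an alternative. Labelling was without amplification, per the series design text. The scanner software is not given in the sources used here. Since no file names a gene for a spot, the 17872 genes of the reference table could not be joined and planned lists of marker genes were not used.

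In R 4.3.3 with limma 3.58.1, mean signal was corrected for the median background by normexp with an offset of 50. Spots with a mark above 0 were left out, and log2 values were quantile normalized over all 24 samples. Samples with identical patterns of marked spots were taken as sharing an array, which the labels do not state. Array brightness was the mean of the 2 median net signals, split at the largest gap. A spot was detected when its signal exceeded the local background by 2 SD of the sample's backgrounds.

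One linear model per probe over all 24 samples held 6 group means plus a term for dye, with variances moderated by limma with a trend. It took the samples of an array as independent. Benjamini-Hochberg adjusted p was taken over all probes and called at 0.05. A second model had a mean for each group and dye. The fits were tested on simulated data. The named probes were the 12 of largest margin, the 4 nearest on each side of the margin threshold, up to 2 per direction for each test, and those most tilted to embryos or heads, and all 18 were then described. The members and these choices were made with earlier results of these data known. Alternatives covered scaling, background, offset, marked spots, the deposited values, dye, array and replicate terms, probe filters and each sample left out. The second model, single-dye and dim-array values and the array as a fixed block were added after the data were seen.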

Additional observations from a re-analysis of the deposited data

Results flagged for a closer look

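In 106 sets of 4 samples, 1 for each member and group with complete values, 4 samples stood far from the other 3, and chance gives about 1 in 20. Probe 5462 had 7.43 in female pupae replicate 2, against 6.86 to 6.93 in the other female pupal samples. Probe 10286 had 10.43 in embryo replicate 2, against 9.84 to 9.93 in the other embryos. Probe 1092 had 8.14 in male abdomen replicate 3, against 7.67 to 7.72 in the other abdomens. Probe 6231 had 7.001 in mixed-sex pupae replicate 2, against 7.25 to 7.30 in the others.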

How the results depend on the processing

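Which probes met the rule depended on how the values were made. The count of 18 became 9 with scaling to the 75th percentile, 11 with plain background subtraction, 63 with an offset of 10 and 54 with the deposited natural log values. Of the 18, these held 8, 11, 17 and 17. Probes 6883, 5462, 16294, 22391, 15422, 9370 and 12548 met it in all 6 other ways of making the values. A margin of 1 left 0 probes. The rule took 38 probes in Cy3 samples alone, 30 in Cy5 samples alone and 34 on dim arrays alone, where group means rest on fewer samples. Leaving out 1 sample gave 13 to 23, the lowest without abdomen replicate 1. The median held-out margin was 0.30, and it was 0.12 with an offset of 10 and 0.16 with the deposited values. Calls between abdomens and male pupae numbered 6, ran from 5 to 7 with 1 sample left out, and fell to 1 on dim arrays alone. Calls with dye numbered 5, ran from 4 to 6 with 1 sample left out, and were 9 with scaling to the 75th percentile, 8 with array brightness as a term and 11 with the array as a random or as a fixed block. Although that scaling raised the count, it ended the dye calls of probes 6883 and 12548. It moved the median dye change of all probes from -0.01 to -0.24. For the dye change in embryos and heads minus that in the other groups, 2 probes passed with that scaling and 1 without head replicate 3, otherwise 0. Calls between female and male pupae were 0 under each alternative run. Where not shown otherwise, the cause was not tested. The replicate block gave 6 abdomen calls, 4 dye calls and 0 sex calls. Samples with the same number in different groups deviated together with r from -0.69 to 0.82 in 60 pairs (median -0.0033), so the numbers were not taken to pair samples. The dim Cy5 samples limit what low probes can show.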
